A study of Mus musculus with 8 samples.

Results

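Epiblast-like aggregates (ELA) and the neural progenitor cells (NPC) made from them were compared by their total RNA, to find which genes were gained and which were lost as the cells became neural. The comparison used 2 of the 8 arrays of the study, the total RNA array at 2 days in vitro (DIV) and the total RNA array at 6 DIV. Both stages came from E14Tg2A, a mouse embryonic stem (ES) cell line of strain 129/Ola that is known to carry a deletion in Hprt; the labels give no further genetic change. For the ELA stage, LIF and serum were withdrawn and dissociated ES cells floated as aggregates over agar for 2 days, in a chemically defined medium with the N2 and B27 supplements and without vitamin A. For the NPC stage, the aggregates were dissociated and grown attached to poly-ornithine and laminin until 6 DIV, in the same medium. Neither stage was given an inducing factor, and no cells were sorted. RNA from 3 independent experiments was pooled for each array, so there was 1 array a side, and every difference below is a description with no test. The other arrays of the study, which hold total RNA of ES cells and of neural precursors (NPC/Neu, 10 DIV) and RNA bound by Argonaute (Ago–RNA) at the 4 stages, were used for normalization and as side values.

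ES cells deprived of LIF leave the naive state, pass through a primed state like that of the epiblast after implantation, and turn neural by default when neither serum nor signals for mesoderm and endoderm reach them. Primed cells form an epithelium held together by E-cadherin and are kept pluripotent by Oct4 (gene Pou5f1), Sox2 and Nanog. Neural progenitors keep Sox2 but exchange E-cadherin for N-cadherin and switch on SoxB1, Zic, Pax and Hes factors. They take a position along the axes of the neural tube from Wnt, BMP, FGF, retinoid and Hedgehog signals, and produce neurons when proneural factors escape Notch inhibition.

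Signals are given as background-corrected and quantile normalized intensities on the log2 scale, and a change is the NPC value minus the ELA value of the same probes. Signals of different genes cannot be ranked on this scale, since each probe binds with its own strength. Of 36163 gene names on the array, 24849 were measured, which means that at least 1 probe lay well above background at either stage by the scanner software's criterion. A change of 1 or more (2-fold) was called a gain and a change of -1 or less a loss. By this limit 2683 gene names were gained (10.8% of those measured) and 2557 were lost (10.3%). Beyond 2.5, the limit that the study set for total RNA, 426 were gained (1.71%) and 496 were lost (2%). These counts depend on the starting signal: with the scanner software's processed signal, quantile normalized, they were 4545 and 3871, and 1322 and 1582 beyond 2.5. The median change over all measured names was -0.0036, a value that quantile normalization holds near 0.

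The error that could be estimated is technical. The SD of the change between spots of the same probe was 0.14 over 297 probes printed 10 times, and it was 0.18 for those below and 0.061 for those above their median brightness. Different probes of a gene differed more, with a pooled SD of 0.50 over 6661 gene names. Of 1276 called names with several probes, 1241 (97.3%) changed in the same direction at every probe. A change of 1 thus lay well beyond the spot error, while the spread between cultures was not measured. Among the measured names, 2954 were not well above background in ELA and 1244 in NPC; there a change is given as a bound, "at least N-fold", against the lowest signal well above background on that array. Counted by these bounds, gains numbered 2490 and losses 2376. Since bulk RNA was measured, fewer cells of a type and less RNA per cell cannot be told apart.

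**Figure D1:**
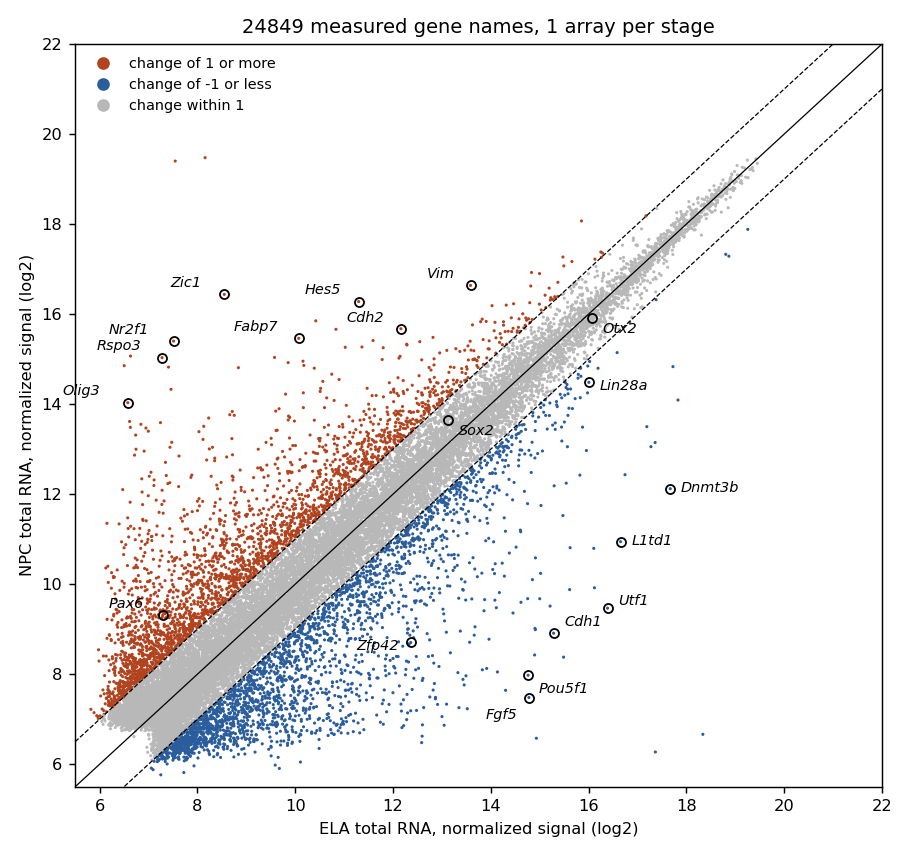
Normalized signal (log2) of 24849 measured gene names in ELA (x axis) and NPC (y axis) total RNA, 1 array per stage. Orange points are the 2683 gained and blue points the 2557 lost names; the solid line marks no change, the dashed lines a change of 1 either way, and circles mark genes described in the text.

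Most probes lie in 3′ ends of transcripts. Probes that lie wholly inside 1 coding exon show which part of an mRNA was read without the question of which 3′ end the cells used, and 4 from gained and 4 from lost list members are printed here as examples, chosen among probes that matched 1 gene and were above background at both stages (60 bases each, 5′ to 3′ on the strand of the mRNA, from the array annotation, mm9; no base is singled out, so none is in capitals). The first 4 belong to gained genes. Crabp1, a carrier of retinoic acid in the cytosol, was read at chr9:54616192-54616251 (plus strand). Ccnd2, cyclin D2, was read at chr6:127098696-127098755 (minus strand). Epha7, an ephrin receptor, was read at chr4:28891069-28891128 (plus strand), and Jam2, a junctional adhesion protein, at chr16:84816558-84816617 (plus strand).
Crabp1: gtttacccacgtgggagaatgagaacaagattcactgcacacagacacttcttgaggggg
Ccnd2: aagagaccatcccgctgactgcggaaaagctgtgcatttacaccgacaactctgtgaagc
Epha7: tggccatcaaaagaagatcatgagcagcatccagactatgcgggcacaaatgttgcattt
Jam2: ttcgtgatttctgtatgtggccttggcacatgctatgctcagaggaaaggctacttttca
The other 4 belong to lost genes. Gdf3, a ligand of the TGF-beta family, was read at chr6:122556340-122556399 (minus strand). Dppa4, a nuclear protein of pluripotent cells, was read at chr16:48291368-48291427 (plus strand). Foxh1, the transcription factor through which Nodal acts, was read at chr15:76498767-76498826 (minus strand), and Cldn4, a tight junction claudin, at chr5:135422135-135422194 (minus strand).
Gdf3: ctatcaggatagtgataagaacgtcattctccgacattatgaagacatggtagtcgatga
Dppa4: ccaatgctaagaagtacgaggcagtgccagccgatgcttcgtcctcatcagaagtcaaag
Foxh1: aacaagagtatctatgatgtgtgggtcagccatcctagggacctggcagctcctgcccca
Cldn4: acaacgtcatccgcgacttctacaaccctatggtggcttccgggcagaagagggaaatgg
Each of these probes was above background at both stages. The signal of the Crabp1 probe went from 10.42 in ELA to 15.85 in NPC, and that of the Ccnd2 probe from 10.16 to 14.95. The Gdf3 probe went from 12.97 to 7.68 and the Dppa4 probe from 12.99 to 7.72. The 8 probes were taken from the upper and lower ends of the change among the probes considered, so they are not typical. Where such a gene had other probes, they changed in the same direction by other amounts. The 3 probes of Epha7 changed by between 2.75 and 4.43. The other probe of Gdf3 changed by -1.72 against -5.29, and 1 of the other probes of Dppa4 by -2.37 against -5.27.

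Among the leading gains were genes known from the dorsal and anterior neural tube. R-spondins amplify Wnt signals at the cell surface, and both members at the top of the ranking were near the detection limit in ELA. Rspo2 (chr15:42852357-43002364, mm9) was not above background in ELA (6.50) and reached 14.85 in NPC, at least 238-fold higher. Rspo3 went from 7.28 to 15.03, which is 216-fold. Zic1 (chr9:91252896-91260648), a zinc finger factor of the dorsal neural tube, went from 8.55 to 16.44 (237-fold), and Nr2f1 (chr13:78328234-78339018), the nuclear receptor COUP-TFI of the developing cortex, from 7.51 to 15.40 (237-fold). All 4 thus went from the lower end of the scale to a strong signal within 4 days. Olig3 and Lmx1a, which mark dorsal neural progenitors and the roof plate, were not above background in ELA and were at least 135-fold and at least 101-fold higher in NPC. The other names among the 20 leading gains were Sparcl1, Tmem132c, Nr2f2, Samd5, Wnt8b, Sp5, Fzd10, Mlc1, Pax3, Meis1, Ptn, Kcna1, Crabp1 and Fabp7, with changes or bounds between 5.39 and 6.59. Of the 20, 11 were not above background in ELA, so for these only a bound is known.

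Among the leading losses were genes known from the epiblast. Fgf5 (chr5:98683203-98706049), the growth factor that marks the primed epiblast, went from 14.78 in ELA to 7.48 in NPC, a loss of 157-fold and the lowest change among gene symbols (clone, Rik and Gm names and accessions, some of which changed by more in either direction, were ranked apart and are given further on). Pou5f1 (chr17:35642982-35647721) went from 14.76 to 7.98, which is 110.3-fold lower. Utf1, a chromatin-bound protein of pluripotent cells, was 121-fold lower, and Fgf4, the growth factor that pluripotent cells secrete, was 101-fold lower. Cdh1 (E-cadherin) went from 15.28 to 8.91, 82.8-fold lower. These 5 genes lay above background at both stages, so their folds are not bounds. The NPC signals of Fgf5, Pou5f1 and Fgf4 (7.64) nonetheless lay near the lowest NPC signal well above background (6.75). The size of a fold against so dim a signal depends on the offset, a constant added to each signal in background correction. With a smaller offset of 16, names lost beyond 2.5 rose from 496 to 622 and names gained beyond 2.5 from 426 to 538. Folds such as 157 and 110.3 thus hold for the offset used here. The remaining 15 leading losses were Cbr3, Slc27a2, Vrtn, Tex19.1, Rab25, Cldn7, Pim2, Foxd3, Thy1, Pdzd4, Smagp, Fbp1, L1td1, Tdh and Pla2g10. Their changes or bounds lay between -7.11 and -5.58. Of all 20, Foxd3 and Fbp1 were not above background in NPC.

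**Figure D2:**
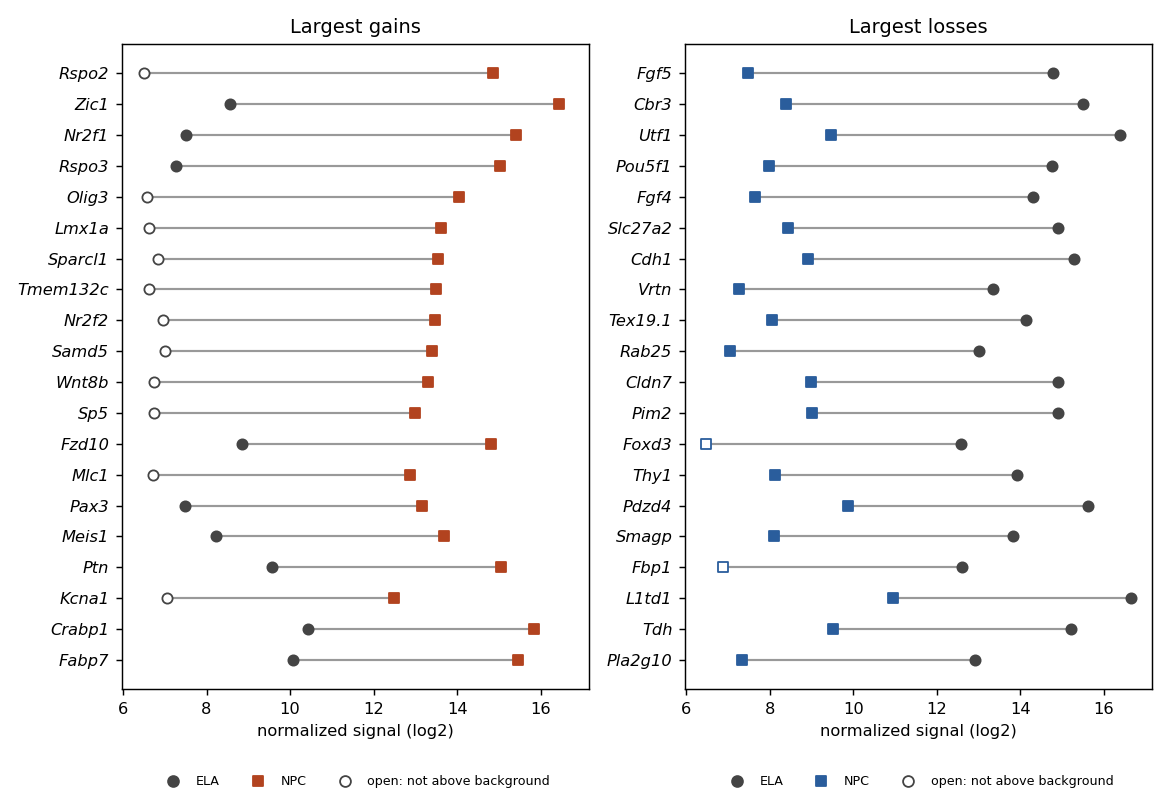
The 20 gene symbols with the largest gains (left) and the 20 with the largest losses (right), ordered by change or, where one side was dim, by its bound; the x axis is the normalized signal (log2), circles are ELA and squares NPC. Open markers were not well above background: 11 of the gained genes in ELA, and Foxd3 and Fbp1 in NPC.

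Factors of the pluripotent state were lost as a group. Of 18 core factors, which naive and primed cells share, 1 was gained and 14 were lost, with a median change of -2.58. Over all measured names the shares gained and lost were 10.8% and 10.3%, and the median was -0.0036. Over the 14172 gene symbols among them the shares were 12.8% and 12.9%, and the median was -0.014. Both backgrounds apply to every list below. Zscan10 went from 13.49 to 7.97 and L1td1, an RNA-binding protein, from 16.65 to 10.94. Lin28a, which blocks the maturation of let-7 miRNAs, was lost by less (-1.52) and still had 14.48 in NPC. Within the limit stayed 3 members, Etv4, Zfp281 and Sox2. Sox2, which neural progenitors also use, changed by 0.52, from 13.13 to 13.64. The 2 probes of Nanog disagreed: one went from 10.04 to 10.66 and the other from 12.89 to 9.73, so Nanog, which counts as lost by its mean of -1.27, is given no direction here.

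Of 16 measured naive factors, 13 were lost and 2 were gained, with a median of -2.86; Prdm14 was not measured at either stage. These genes are silenced when cells are primed, and all 16 were already lower in ELA than in ES cells. Zfp42 (Rex1), for example, had 15.97 in ES cells, 12.36 in ELA and 8.71 in NPC. Esrrb had 15.19, 12.45 and 9.59 at the same stages, and Klf5 had 13.75, 11.37 and 8.29. A large part of the loss of these 3 thus fell after 2 DIV. The list as a whole differed: its median was 13.49 in ES cells, 10.44 in ELA and 8.37 in NPC, so its larger step came before 2 DIV. Klf4 was lower in ELA (9.85) than in ES cells (12.86) and had 10.32 in NPC, a change within the limit. The gained members were Tet2, a dioxygenase that oxidizes methylcytosine (8.02 to 10.24, all 3 probes higher), and Jam2 (7.78 to 10.66).

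The primed epiblast genes did not move as a block. Of 14 measured, 5 were lost and 2 were gained, and the median was -0.65. Dnmt3b, the de novo DNA methyltransferase of the epiblast, went from 17.67 to 12.12, Cldn6 from 12.46 to 8.10, and Pou3f1 (Oct6) from 15.47 to 11.52. Otx2, Sox3 and Zic2, which the anterior epiblast shares with the neural plate, stayed within the 2-fold limit, with changes of -0.16, -0.66 and -0.85. Nodal, Lefty1 and Lefty2 changed by -0.12, -0.48 and -0.64; they had been higher in ES cells, where Nodal had 13.36 against 9.66 in ELA. Sfrp2 and Fst, secreted inhibitors of Wnt and of Activin, were gained (1.42 and 2.07).

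Epithelial junction genes were lost in nearly every case. Of 18 such genes 17 were lost and none was gained, with a median of -3.67. Epcam went from 12.82 to 7.65, the claudin Cldn7 from 14.91 to 8.99, and Esrp1, which directs epithelial splicing, from 11.46 to 7.43. Rab25 and Grhl2, a trafficking GTPase and a transcription factor of epithelia, changed by -5.94 and -3.94. The exception was the plakophilin Pkp3 (0.22). Cdh2 (N-cadherin) changed in the opposite direction, from 12.16 to 15.67 (11.4-fold higher at the mean of 2 probes). Among repressors of Cdh1, Zeb1 went from 8.31 to 13.04 and Zeb2 changed by 1.99, whereas Snai1 was lost, from 11.23 to 8.78. Snai2, Twist1 and Twist2 stayed within 2-fold, so the gains were in the Zeb pair and in no other of the 6 factors.

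Neural progenitor factors were gained. Of 29 measured, 19 were gained, 0 were lost, and 12 were gained beyond 2.5; the median change was 2.30. Fabp7, a fatty acid binding protein of radial glia, went from 10.07 to 15.46. Hes5, the Notch effector of progenitors, went from 11.30 to 16.28, and Vim (vimentin) from 13.58 to 16.64. Several had their ELA value close to that of ES cells: Pax6, a master factor of forebrain and eye progenitors, had 7.36 at the ES stage, 7.29 at the ELA stage, 9.31 as NPC and 9.81 as NPC/Neu. Nes (nestin) stayed just under the limit for a gain, from 13.86 to 14.86. Sox1, the earliest SoxB1 marker restricted to neural cells, was higher at both probes but by different amounts, 0.75 and 3.64. Lowest in the list were Slc1a3 (-0.79) and Sox3, both within the limit.

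**Figure D3:**
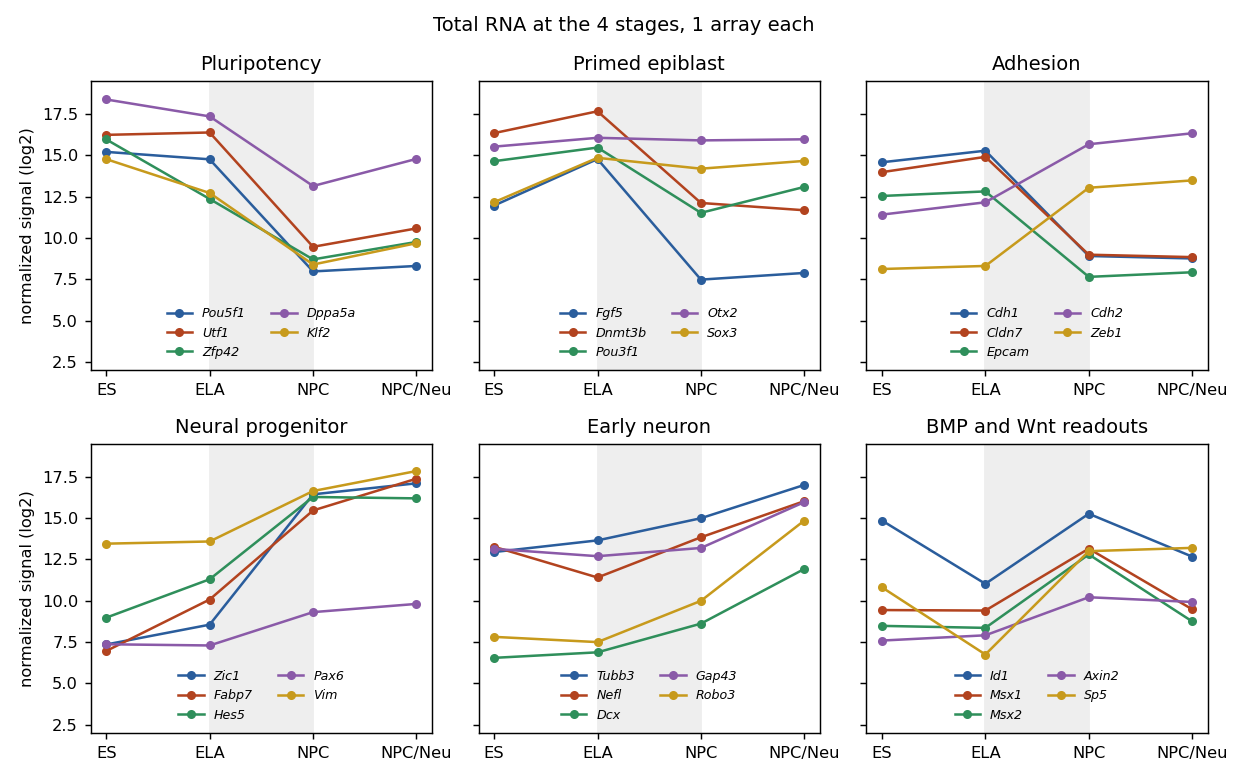
Total RNA signal (log2, y axis) of 30 genes in 6 groups at the 4 stages (x axis), 1 array each; the gray band marks the step from ELA to NPC and lines join the values of a gene. Pou5f1 and Cdh1 drop within the band, Zic1 and Zeb1 climb within it, Otx2 stays near 16, and Msx1 and Msx2 are high in NPC alone.

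Regional factors of both the anterior and the posterior neural tube were gained. Of 25 measured forebrain factors, 15 were gained and 2 were lost (median 2.12, or 1.75 with dim values at their bound). Of the 15 gained, 8 were not above background in ELA and counted as measured through their NPC signal. A further 5 listed factors were not measured at either stage. Dmrta2, a factor of the dorsal telencephalon, went from 7.62 to 12.85 and Lhx2, a factor of cortex and eye, from 9.65 to 12.80. Emx2 was not above background in ELA and was at least 21.0-fold higher. Some factors of ventral domains stayed within the limit: Nkx2-2 changed by 0.04, Dlx2 by -0.69, Dlx5 by -0.17 and Gsx1 by -0.24. Counted as lost were Hesx1 (-1.60) and Gsx2 (-1.13), both not above background in NPC; for Gsx2 the bound is within the limit. Dlx2 and Gsx1 reached 11.85 and 11.15 only in NPC/Neu, from 7.01 and 8.10 in NPC.

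Of 28 measured midbrain and hindbrain factors, 18 were gained (17 by their bounds) and 1 was lost (median 2.50). Of the 18 gained, 7 were not above background in ELA, and 3 listed factors were not measured at either stage. Pax3, a dorsal factor, went from 7.47 to 13.15, and the homeobox genes Irx1 and Meis2 from 8.71 to 13.84 and from 8.12 to 13.22. En2 of the midbrain had 9.55 and 11.94, and Wnt1 of its isthmus 8.55 and 11.15. Phox2a, a factor of brainstem neurons, was lost (-1.48). The Hox genes, which encode position behind the midbrain, were mostly dim: 22 of 39 were measured, 12 were gained (10 by their bounds) and 1 was lost. Hoxa2 and Hoxb2, the most anterior of them in the hindbrain, were at least 12.0-fold and at least 6.97-fold higher than in ELA.

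About as many proneural factors were gained as stayed level. Of 27 such factors 14 were gained (12 by their bounds) and 2 were lost, with a median of 1.30 (0.63 with dim values at their bound). Of the 14 gained, 7 were not above background in ELA and counted as measured through their NPC signal. Ebf2 went from 8.21 to 11.13 and Lhx5 from 7.87 to 12.37. Neurog2 and Atoh1, not above background in ELA, were at least 7.07-fold and at least 19.4-fold higher. The lost ones were Neurog3 (-1.59) and Neurod1 (-1.30), while Neurod2 (-0.59) and Myt1l (-0.12) stayed within the limit. Atoh1 and Olig3 were high in NPC alone, with 7.29 and 8.96 in NPC/Neu against 11.24 and 14.03 in NPC.

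Of 37 measured neuron genes, 13 were gained (12 by their bounds), 4 were lost and none passed 2.5 in either direction. The median was 0.17. The gains included the neurofilaments Nefl (11.41 to 13.84) and Nefm (8.55 to 10.57) and the RNA-binding protein Elavl4 (8.94 to 11.10). Tubb3, the neuronal tubulin, went from 13.65 to 14.99 and Dcx (doublecortin) from 6.88 to 8.61. The losses were Ina (-1.59), Cntn2 (-1.58), Syn1 (-1.33) and Slc32a1 (-1.43), whose 2 probes disagreed in direction. On the NPC/Neu array the list median was 12.58, against 10.57 in NPC and 10.50 in ELA, so its larger step came after the one described here.

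Genes that guide axons were gained in larger number. Of 41 guidance genes 22 were gained, 12 of them beyond 2.5 (11 by their bounds), and 5 were lost (median 1.14). The repellent Slit2 went from 8.03 to 13.39, the ephrin Efnb1 from 9.86 to 14.92 and Efnb3 from 10.75 to 14.66. The netrin receptors went different ways: Unc5c was at least 19.9-fold higher, and Unc5b and Unc5a were lost (-2.58 and -1.19). Dcc counted as gained by the mean of its probes (1.22). Its only probe above background at both stages changed by 0.92 (15.95 to 16.87), within the limit. The others were not above background in ELA. The Slit receptors Robo2 and Robo3 were gained (1.41 and 2.50), and Robo1 changed by -0.89. Of 38 protocadherins, which give neurons their surface identity, 22 were gained (18 by their bounds) and 2 were lost. Pcdh8 went from 8.71 to 13.23 and Pcdhb21 was at least 36.8-fold higher, while Pcdh1 was lost (-2.69). Clustered protocadherins share much sequence, and signal of one may come in part from another.

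**Figure D4:**
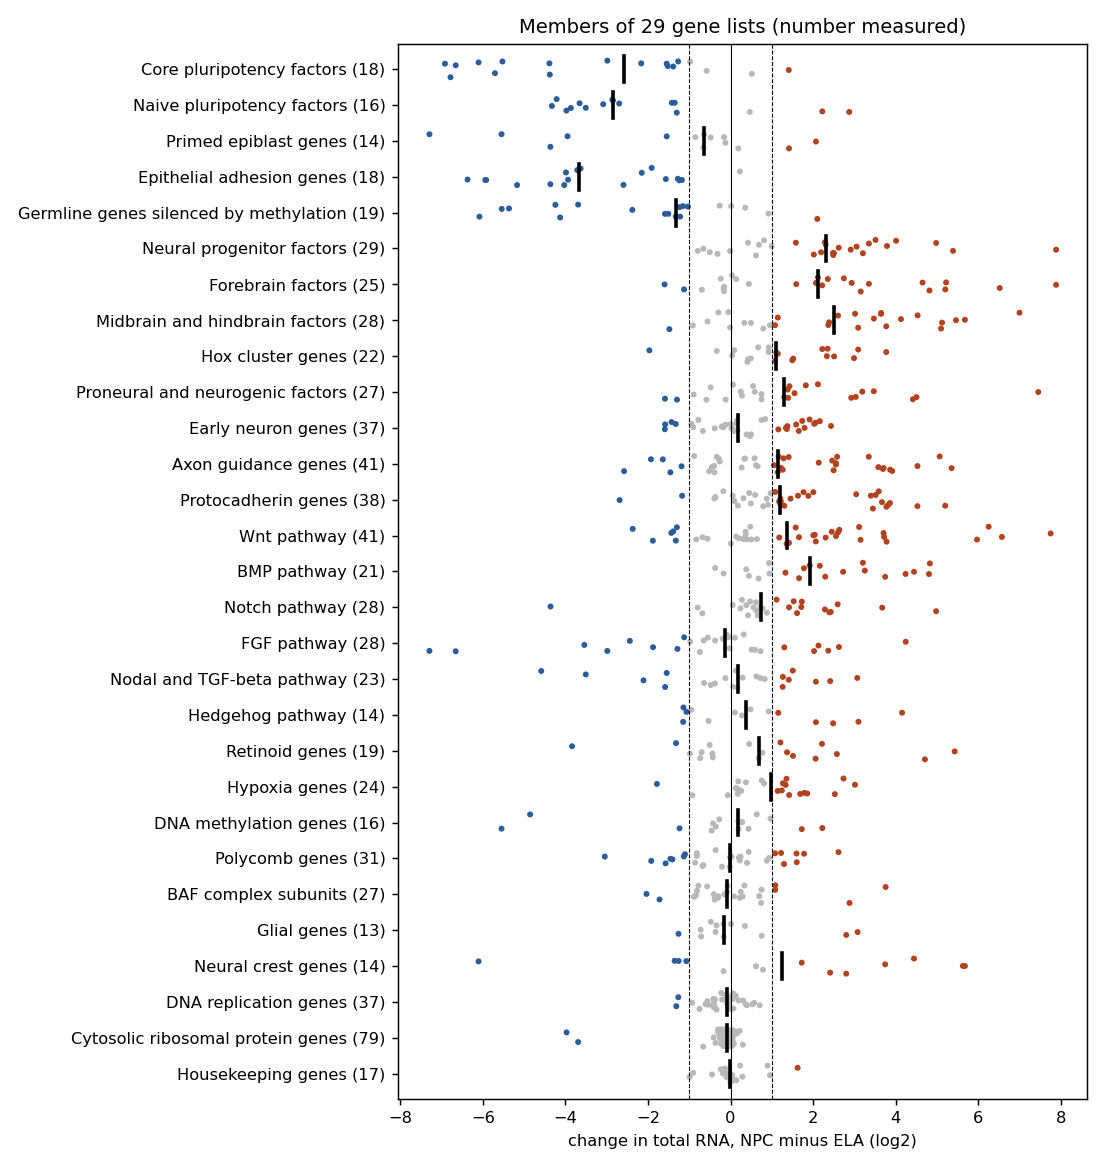
Change in total RNA (NPC minus ELA, log2, x axis) of every measured member of 29 gene lists (rows, with the number measured); orange points are gains, blue points losses and gray points changes within 1, and black bars are list medians. The medians run from -3.67 for epithelial adhesion genes to 2.50 for midbrain and hindbrain factors, while those of DNA replication, ribosomal protein and housekeeping genes lie within 0.1 of 0.

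Wnt pathway genes were gained more often than lost. Of 41 measured, 22 were gained and 6 lost (median 1.36). Among ligands, Wnt8b was at least 81.7-fold and Wnt3 at least 12.7-fold higher, Wnt7b went from 7.74 to 11.52, and Wnt5b from 9.63 to 12.78. Among receptors, Fzd10 went from 8.84 to 14.81, whereas Fzd5 and Fzd7 were lost (-1.30 and -1.44). The direct targets Axin2 (7.91 to 10.21), Nkd1 (8.17 to 11.29) and Sp5 (at least 65.7-fold) were gained. The factors through which beta-catenin acts on DNA were lower: Tcf7l1, a repressor that balances pluripotency, had -2.37, Tcf7 -1.39 and Lef1 -1.33, and the 3 probes of Tcf7l2 changed by between -0.29 and 0.33.

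BMP components and targets were gained, and none was lost. Of 21 measured, 14 were gained and 8 passed 2.5 (median 1.92). The ligands Bmp7 and Bmp4 went from 10.39 to 13.64 and from 12.02 to 13.80, and Bmp6 was at least 28.0-fold higher. The Id genes, direct targets that hold back differentiation, showed a dip at the ELA stage: Id1 had 14.85, 11.02, 15.26 and 12.67 from the ES to the NPC/Neu stage, and Id2 had 13.70, 10.83, 15.66 and 14.83. Msx1 and Msx2, targets in the dorsal neural tube, went from 9.40 to 13.15 and from 8.36 to 12.80, and were back at 9.48 and 8.75 in NPC/Neu. The secreted inhibitors Nog and Chrd stayed within the limit (0.38 and -0.37), and the inhibitor Grem1 was at least 3.16-fold higher.

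FGF pathway genes changed in both directions. Of 28 measured, 6 were gained, 8 were lost and 14 stayed within the limit (median -0.14). Besides Fgf5 and Fgf4, the losses were Dusp4 (-3.54), Etv5 (-2.99), Spry4 (-2.44), Fgf9 (-1.88), Spry2 (-1.29) and Fgfr4 (-1.12); Dusp4, Spry2 and Spry4 are feedback inhibitors and Etv5 is an effector of ERK. Fgf8 and Fgf15, ligands of the brain's organizers, went from 7.99 to 10.36 and from 10.10 to 12.23. Fgfr3 was gained (2.63), as was Fgfbp3, a binding protein that mobilizes FGFs (4.24). Dusp6 and Spry1 stayed at -0.08 and -0.05.

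In the Nodal and TGF-beta list 7 of 23 were gained and 5 were lost. The losses included the partners of Nodal in the epiblast, Foxh1 (12.83 to 8.25), Gdf3 and the co-receptor Tdgf1 (-1.55), while Tgfb3 and Tgfb2 were gained (3.07 and 2.41). The value of Tdgf1 is a mean of 3 probes that changed by between -2.55 and -0.68. Its brightest probe (12.45 to 11.77) stayed within the limit. Notch genes were gained in 12 of 28 cases, among them the ligands Dll1 (9.88 to 12.30) and Jag1 (1.61), the target Nrarp (2.59) and the receptor Notch3 (1.73). Dtx1, a modulator of Notch, was the one loss, from 14.18 to 9.81. Notch1 and the target Hes1 stayed within the limit (0.42 and 0.61). Hedgehog genes gave 5 gains and 3 losses of 14; the co-receptors Boc and Cdon were gained (Boc by 4.16), Ptch1, a receptor and target of the pathway, was lost (-1.14), and Gli1, also a target, had 0.10. Shh itself was not measured at either stage.

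The medium held no added vitamin A, the precursor of retinoic acid. Of 19 measured retinoid genes, 8 were gained and 2 lost (1 by their bounds). Cyp26b1, which degrades retinoic acid and is itself induced by it, went from 7.16 to 11.87, and Cyp26a1 was at least 5.37-fold higher. The carriers Crabp1 and Crabp2 were gained (5.43 and 2.21), and the receptor Rarg was lost, from 14.08 to 10.24. Hypoxia-inducible factor targets were gained in 12 of 24 cases with 1 loss (Ndrg1, -1.78) and a median of 0.98; P4ha1 went from 7.50 to 10.51, Adm from 8.32 to 11.05 and Vegfa from 9.02 to 11.55. The glucose transporters differed, with 1.81 for Slc2a3 and -0.92 for Slc2a1. On the NPC/Neu array Adm was back at 7.97. The stages differ in culture form, floating or attached, as well as in time, and these cannot be told apart in this design.

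Chromatin genes changed in a few members each. Dnmt3l, a cofactor of de novo methylation, was lost together with Dnmt3b (13.57 to 8.71), Tet1 was lost (-1.24), and Dnmt1 and Dnmt3a stayed at -0.27 and 0.19. Of 31 Polycomb genes 7 were gained and 7 lost, with a median of -0.01. Cbx7, the chromobox of pluripotent PRC1, was lost (bound -1.75), and Cbx8 was gained (1.78). The ring finger partners also differed, with Bmi1 at 2.62 and Pcgf6 at -1.10, while the PRC2 core subunits Eed, Suz12 and Ezh2 had -0.02, -0.21 and 0.88. Among 27 BAF subunits, Smarcd3 went from 7.79 to 11.55 and Smarca2 from 7.94 to 10.82, subunits of differentiated cells. Bcl11a and Smarcd2 were lost (-2.04 and -1.72), and the ATPase Smarca4 had -0.15. The demethylases Phf2, Kdm6b and Kdm3a were gained (1.70, 1.69 and 1.24) and Kdm4c was lost (-1.55); Kdm2b had -0.66.

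Germ cell genes that somatic cells silence by promoter methylation were lost. Of 19 measured, 14 were lost (12 by their bounds) and 1 was gained, with a median of -1.33. Of the 14 lost, 10 were not above background in NPC and counted as measured through their ELA signal. Tex19.1 went from 14.14 to 8.05, Sycp3, a component of the synaptonemal complex, from 13.43 to 7.89, and Mael, of the piRNA pathway, from 12.18 to 6.81. Ddx4, Syce1 and Rpl10l, not above background in NPC, were at least 18.3-fold, 16.6-fold and 12.9-fold lower. The gained one was Tdrkh (2.10), and Taf7l had 0.02. Rpl10l and Rpl39l were also the only called members among 79 cytosolic ribosomal protein genes, and both have their known role in testis. Imprinted genes gave 10 gains and 5 losses of 25. Igf2, a growth factor, went from 7.66 to 11.47 and Cdkn1c, an inhibitor of cyclin-dependent kinases, from 12.82 to 15.48; the noncoding RNA Meg3 and its neighbor Mirg were lost (-1.89 and -2.34).

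RNA regulators of embryonic cells moved in both directions. Hmga2, a let-7 target that keeps progenitors proliferating, went from 9.61 to 13.41, whereas Trim71 was lost together with Lin28a (-1.39); Lin28b had 0.75. Rest, the repressor of neuronal genes, was lost (-1.23), and Srrm4 and Ptbp2, splicing regulators of neurons, were gained (1.33 and 1.03). The Argonautes, which the array names Eif2c1 to Eif2c4 (now Ago1 to Ago4), changed by 0.99 for Eif2c1, -0.24 for Eif2c2, 0.04 for Eif2c3 and 2.04 for Eif2c4. Of 14 measured genes of the miRNA pathway, Eif2c4 was gained, and Mov10 and Xpo5 were lost (-1.14 and -1.05).

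Among cell cycle genes, those of the D-type cyclins were gained. Ccnd2 went from 10.16 to 14.95, and Ccnd1 and Ccnd3 had 1.06 and 1.01, while Ccne1 (cyclin E1) was lost (-1.52). Rb1, which restrains S phase entry, was gained (1.70), as was its relative Rbl1 (1.18). Of 37 replication genes none was gained and 2 were lost, Orc1 (-1.31) and Orc2 (-1.27), with a median of -0.09. Mki67 and Top2a, present in cycling cells, had 0.67 and 0.30. In metabolism, Tdh, the threonine dehydrogenase of mouse ES cells, went from 15.21 to 9.51 and Gldc of glycine cleavage had -1.73; 6 of 23 genes of serine, threonine and folate use were lost and none was gained. Among 30 genes of cholesterol synthesis and handling, 6 were gained, none beyond 2.5 (5 by their bounds), and 2 were lost, the exporter Abcg1 from 13.96 to 8.78 and the lipid carrier Apoe (-1.73).

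The arrays also carried genes of other cells that such cultures can hold. Of 16 measured mesendoderm genes, 7 were gained and 1 was lost (median 0.89): T, the brachyury factor of mesoderm, went from 7.19 to 9.73, Cdx2 was at least 5.01-fold higher and Foxa2 went from 8.01 to 9.55. Sox17, which defines endoderm, was not above background in ELA and had 8.08 in NPC, while Mixl1, Mesp1 and Hand1 were not measured at either stage. The median signal of the list was 7.43 in ELA and 8.73 in NPC. Primitive endoderm genes gave 8 gains and 4 losses of 15, with Ttr at least 10.2-fold and Pdgfra at least 7.86-fold higher, and Gata4 at -0.79. Gata6, Sox7, Afp, Apoa1 and Hnf4a of this list were not measured at either stage, and the median signal of the others was 9.85 in ELA and 11.75 in NPC. Neural crest genes gave 7 gains and 4 losses (3 by their bounds) of 14. The losses were Foxd3 (at least 57.3-fold lower), Ets1, Tcof1 and Erbb3. Erbb3 was not above background in NPC, and its bound is within the limit. The Tfap2 factors, named Tcfap2a to Tcfap2c on the array, had 2.41 for Tcfap2a and 4.08 for Tcfap2c. Tcfap2b was at least 35.3-fold higher, while Sox10, which defines migrating crest, had -0.17. The crest median went from 8.54 to 10.09. Glial genes stayed within the limit in 10 of 13 cases, with Gfap at -0.36. Blood and vessel genes gave 5 losses and 1 gain (Kdr) of 10; the 2 probes of Kdr changed by 3.83 and -0.16. Mesenchyme genes gave 8 gains (6 by their bounds) and 3 losses of 16 (Thy1 at -5.79). Surface ectoderm genes gave 2 gains (1 by their bounds) and 6 losses of 15 (Krt8 at -2.26), and trophoblast genes 2 gains and 2 losses of 9. The part of such cells in the results above was not tested.

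Adhesion to other neural cells and to the matrix changed in particular members. Of 21 neural adhesion genes 10 were gained (8 by their bounds) and 2 were lost (median 0.98, or 0.88 with dim values at their bound). After Cdh2 the highest were Cntn1, a contactin, from 8.02 to 10.97, Cdh11 (2.66) and Ptprz1, a receptor phosphatase of glia (2.55). Of 38 matrix genes 14 were gained and 8 lost (median 0.19). The collagens Col4a5 and Col2a1 went from 7.89 to 12.42 and from 11.36 to 15.27, whereas Spp1 (osteopontin) was at least 8.54-fold lower and the basement membrane protein Nid2 was lost (-2.09). Integrins, the receptors for matrix such as the laminin of the coated dishes, stayed within the limit in 12 of 14 cases. Among 31 measured ion channel and transmitter receptor genes 9 were gained, led by the potassium channel Kcna1 (at least 43.3-fold) and the calcium channel Cacna1g (8.87 to 12.54), and 3 were lost.

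Smaller lists completed the picture of the step. Zfp-named zinc finger genes gave 42 gains and 20 losses of 336: Zfp536, a repressor of neuronal differentiation, was at least 40.3-fold higher, Zfp503 went from 7.36 to 12.41, and Zfp296, found in pluripotent cells, was 26.1-fold lower. Of 12 genes of LIF signaling, withdrawn before ELA, the feedback inhibitor Socs3 and Pim1 were gained (1.64 and 1.23), and Tcfcp2l1, now Tfcp2l1, was lost (-1.42). Of 18 p53 targets 3 were lost, led by the proapoptotic Pmaip1 (Noxa), from 13.26 to 10.37, and Fas alone was gained. Kinesins gave 6 gains and 0 losses of 40, histone genes 1 gain and 1 loss of 46, and glycolysis genes 3 gains and 0 losses of 23.

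Genes with steady functions give the scale for these numbers. Of 17 housekeeping genes 16 stayed within the limit and Hprt, which is deleted in part in E14Tg2A and so is no reference here, had 1.62. Of 75 mitochondrial ribosomal protein genes 73 stayed within it (median -0.28). Cytosolic ribosomal protein genes had a median of -0.07. Of 1363 olfactory and vomeronasal receptor genes, silent in such cells, 196 were measured as above background at either stage; 4 of these were called gained and 25 lost, and by their bounds 0 and 12 remained. Calls this close to the detection limit thus depended on the bound.

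Noncoding transcripts were among the strongest changes, and these names were chosen after their values were seen. Gm3515, now Rmst, a long noncoding RNA that works with Sox2 in neurogenesis, went from 6.63, not above background, to 15.07 at 2 probes, at least 276-fold. 2610017I09Rik, now Pantr1, a noncoding neighbor of Pou3f3, went from 7.41 to 14.82. The lost 2410007B07Rik, now Platr10, a noncoding RNA associated with pluripotency, went from 12.60 to a value not above background (6.62), at least 57.7-fold lower. Among 3412 measured transcripts named only by an intergenic position, 213 were gained and 209 lost (192 and 177 by their bounds).

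The same step was also read in Ago–RNA, on an ELA and an NPC array other than the pair above. Of 425 names gained beyond 2.5 in total RNA and measured in Ago–RNA, 423 (99.5%) were higher in NPC there too, and 416 by 1 or more. Of 491 names lost beyond 2.5, 490 (99.8%) were lower. For all gains and losses the shares were 97.2% of 2568 and 98.5% of 2304, against 48.3% higher and 51.7% lower over all 22460 names measured in both fractions. The Pearson correlation of the changes across those names was 0.89; names are not independent replicates, and the RNA of the 2 fractions came from the same stages. Of the leading genes, Zic1 changed by 7.65 in Ago–RNA and 7.89 in total RNA, and Fgf5 by -6.88 and -7.30.

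**Figure D5:**
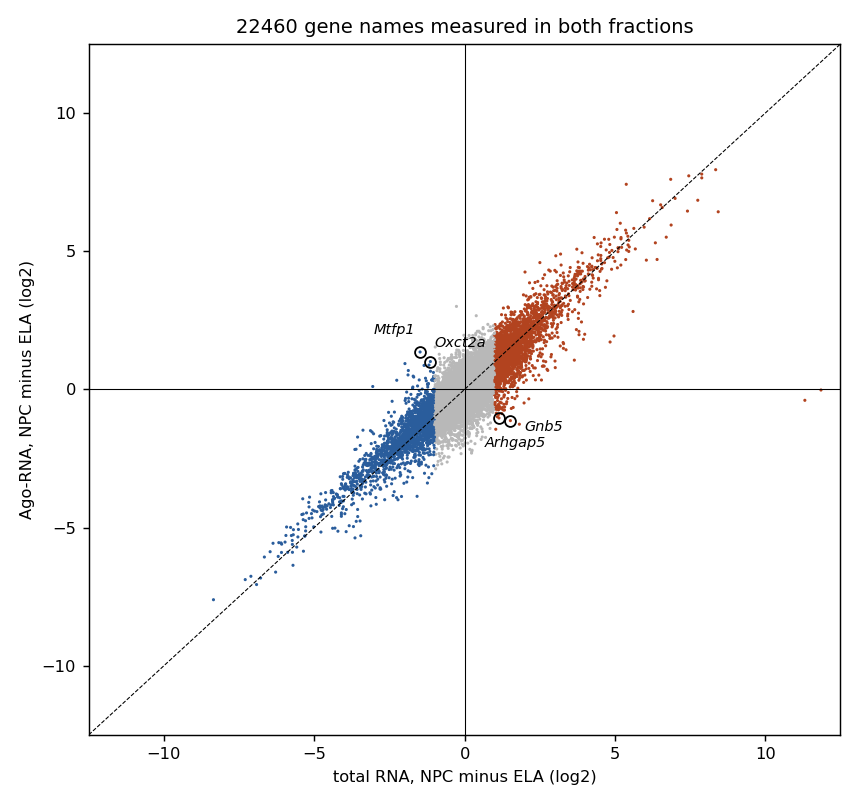
Change from ELA to NPC (log2) of 22460 gene names in total RNA (x axis) and in Ago–RNA (y axis), each from 1 array per stage; orange and blue points are gains and losses in total RNA, and the dashed line marks equal change. Most points lie near the dashed line. The 4 circled genes are plotted past 1 in opposite directions (Oxct2a without its bound). The points at the far right are 2 names with 1 probe each.

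The outer stages of the series placed the step in the longer course. The median signal of the 426 names gained beyond 2.5 was 7.45 at the ES stage, 7.74 at the ELA stage, 11.42 for NPC and 11.56 for NPC/Neu. The median of the 496 lost names was 11.68, 11.32, 7.65 and 7.60 at the same stages. The step between 2 and 6 DIV is the one the sets were chosen on; before and after it their medians moved by less than 0.4. On the arrays that the choice did not use, 97.2% of the names gained beyond 2.5 were higher in NPC/Neu than in ES cells and 98.6% of the lost ones were lower, against 47.7% and 52.3% of all measured names.

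The promoters of lost genes held fewer CpG dinucleotides for their base composition than those of all measured genes. RefSeq promoters (GRCm38.p6, from 250 bases before to 50 after the start; the first listed start of each gene) were matched by symbol for 12595 measured genes. The median ratio of observed to expected CpG was 0.49 for 303 genes lost beyond 2.5 and 0.57 for all 1558 lost genes. It was 0.72 for all those measured and lower, 0.39, for all 27025 promoters in the table. For 252 genes gained beyond 2.5 it was 0.68 and for all 1548 gained genes 0.71. The octamer ATGCAAAT, the sequence to which Oct4 and its relatives bind, was found on either strand in 3.63% of promoters of genes lost beyond 2.5, 2.78% of those gained beyond 2.5 and 1.45% of all those measured (1.75% of all 27025 promoters in the table). With 303 and 252 genes in the sets beyond 2.5, these octamer shares rest on few promoters. The E-box CAGCTG was found in 16.5% of promoters of genes lost beyond 2.5, 19.8% of those gained beyond 2.5 and 15.2% of all those measured. A match is a match of letters alone and does not show binding.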

How the data were processed

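Total RNA of ELA (2 DIV) and NPC (6 DIV), pooled from 3 independent experiments each, was hybridized by the authors to 1 Agilent 1-color mouse array (Cy3, 60-base probes) per stage. The deposited files hold scanner intensities per spot, written by Feature Extraction (version 10.7.3.1 in the file headers; the submitters' processing notes give 9.1 and limma). Of each spot's intensity, the deposited mean signal and local background were used. Irregular spots (523 in ELA, 204 in NPC) and control spots were left out, 0 spots were saturated, and 55.1% of spots in ELA and 60.6% in NPC were well above background. Background was corrected by normexp (offset 50) and the 8 arrays were quantile normalized with limma 3.58.1 in R 4.3.3; spots were averaged by probe, and probes by gene name, in Python 3.11.15 with pandas 2.3.3. With 1 array a side no test was possible, and precision is limited by how few arrays there are. The steps were tested on simulated data.

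The 20 highest and 20 lowest gene symbols whose probes agreed in direction were named. The naming rule also took in stage markers and the 4 highest and 4 lowest members of each list. It took in all members of lists of up to 16 genes. Of the list members under this rule the text names only a part, so the extremes of a list are not always shown. Other members are named for their known role and were chosen after their values were seen. The gene lists overlap, and some of their members are not reported here by name. Members and lists were chosen with earlier results of these data known. Alternatives varied the offset, starting signal, scaling, filter and choice of probe. Array coordinates are mm9; old names were updated through RefSeq (GRCm38.p6), and 16160 of the 24849 measured names matched.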

Additional observations from a re-analysis of the deposited data

Results flagged for a closer look

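For 4 genes the computed values of total RNA and Ago–RNA moved past 1 (log2) in opposite directions from ELA to NPC. This brought them up here, before signals under the background criterion were set to their bounds. The difference was not tested, since each value comes from 1 array a side, and each gene was read by 1 probe. Arhgap5 went from 9.16 to 10.31 in total RNA (1.14) and from 11.70 to 10.66 in Ago–RNA (-1.04). Gnb5, a G protein beta subunit of neurons, went from 8.23 to 9.75 in total RNA (1.52) and from 10.95 to 9.81 in Ago–RNA (-1.13). The reverse was seen for Mtfp1, a protein of mitochondrial fission, with 13.46 and 11.98 in total RNA (-1.48) and 12.83 and 14.18 in Ago–RNA (1.35). Oxct2a, a ketone body transferase, had 7.63 and 6.49 in total RNA (-1.14) and 7.04 and 8.05 in Ago–RNA (1.01), values close to the detection limit. Its NPC total RNA signal lay under the lowest NPC signal well above background (6.75). Its loss is thus a bound that stays within 1, and it does not count as a called loss by that bound.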

How the results depend on the processing

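The counts depended most on the starting signal. With the scanner software's processed signal, quantile normalized, 4545 names were gained and 3871 lost, 1322 and 1582 of them beyond 2.5; scaled to the 75th percentile, it gave 4117 and 4125, with 1051 and 1572 beyond 2.5. The cause was not tested. With the other 6 alternatives each count stayed within 1.5 times its reported value. Scaling to the 75th percentile moved the median of all names to -0.13, and median scaling of the 2 arrays moved it to 0.083, with 59.8% of calls as gains against 51.2%. Of 5240 called names none changed sign under 6 of the alternatives; 9 of 3908 did when probes had to be above background on both arrays, and 10 of 5240 with the brightest probe. The naming rule covered 514 genes, including some that the text does not name. Of their values, 2671 stayed within 1 SD between spots (0.14) of the reported change, 1355 moved by more and 2 reversed. The reversals were of Kdr, which went from 1.84 to -0.16 both with that stricter filter and with the brightest probe. In each case 1 of its 2 probes was used. Of the values of 55 list medians, 307 stayed within that SD and 133 moved by more. No paired analysis was possible because there was 1 array per stage and no replicate to leave out. Cultures were pooled before hybridization, so their spread is unknown, and signals under the background criterion give bounds only.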

Other observations

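Some names changed strongly in total RNA and by less than 2-fold in Ago–RNA. They were chosen after their values were seen. Past 2.5 in total RNA, 16 names had an Ago–RNA change within 1. Ago–RNA signals did not have to pass the background criterion here, and some of these names were not above background in that fraction. For those, a small Ago–RNA change is no measured difference between the fractions. Above background in Ago–RNA at both stages were Bmi1 (2.62 and 0.85) and Hddc3 (2.56 and 0.34). Syt10 (-2.52 and 0.24) was not above background there at either stage. The 4 names past 10 in total RNA were all of this kind, each with 1 probe. 4933407C09Rik went from 18.34 in ELA to 6.67 in NPC, with an Ago–RNA change of -0.01. The probe A_55_P1994184 went from 17.36 to 6.27, with -0.32. Neither was above background in Ago–RNA at either stage. The transcript ENSMUST00000107034 went from 8.16 to 19.47 (Ago–RNA -0.40, not above background in NPC) and 4930520P13Rik from 7.55 to 19.40 (Ago–RNA -0.02). Of the 8 arrays, each of these names was bright on 1 alone.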
